A study of Homo sapiens with 6 samples.

Results

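The genes described here are the small nucleolar RNA host genes, long non-coding RNAs that carry small nucleolar RNAs (snoRNAs) in their introns. Members were taken by name: every gene called SNHG followed by a number, plus GAS5, ZFAS1, EPB41L4A-AS1 and DANCR. That gave 29 of the 58825 genes in the data, and 26 of the 29 had enough counts to be tested. RNA was sequenced from NCI-H460 cells, a human lung cancer line, infected with lentivirus for a short hairpin RNA. The hairpin was a control (NC-shRNA, 3 libraries) or was against PRMT5 (PRMT5-shRNA, 3 libraries). The labels name GFP for the control, and the study names no target for its control hairpin. Both groups therefore carry a lentiviral insertion and a hairpin, and both are populations of the same line grown in the same medium. Which of the PRMT5 hairpins was sequenced, and whether it was the same in all 3 libraries, is not given in the labels. The effect of PRMT5 loss and of the hairpin used therefore cannot be told apart. The study calls the 3 libraries of a group biological replicates, the labels do not say whether they came from separate infections, and the p-values measure the spread between these libraries.

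PRMT5 is the main enzyme that places symmetric dimethylarginine on proteins, among them histones and the Sm proteins of the spliceosome. A snoRNA of the box C/D class guides 2′-O-methylation of ribosomal RNA and other RNAs, one of the box H/ACA class guides pseudouridylation, and small Cajal body RNAs (scaRNAs) do the same for spliceosomal RNAs. In human cells most of them are not transcribed alone but are trimmed out of the spliced introns of a host gene. The spliced exons of hosts such as GAS5 and SNHG1 hold only short open reading frames, and in the cytoplasm they engage ribosomes and are degraded by nonsense-mediated decay (NMD), so their level is known to rise when translation or NMD is blocked. Many hosts also begin, like ribosomal protein mRNAs, with a 5′ terminal oligopyrimidine tract, a C followed by a run of pyrimidines, which ties their translation to growth signalling.

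The start of the transcript is the sequence feature that sets several of these genes apart, and the windows that hold it are shown first. RefSeq start sites (GRCh38.p14) were at hand for 25 members, with no window for SNHG15, SNHG25, SNHG6 and SNHG9. A C at the first base followed by at least 4 pyrimidines (C or T), read on the gene's own strand, stood at the start of 6 of the 25 (24.0%). The same tract stood at 1429 of 35116 windows of all genes (4.07%) and at 46 of 77 windows of ribosomal protein genes (59.7%). Each line gives 10 bases before the start and the first 25 bases of the transcript, with the tract in capitals. The windows lie at chr20:49278632-49278666 on the plus strand for ZFAS1, chr6:85678709-85678743 on the minus strand for SNHG5, chr16:2155334-2155368 on the minus strand for SNHG19, chr5:139274091-139274125 on the plus strand for SNHG4, chr1:28581849-28581883 on the minus strand for SNHG12 and chr5:9546190-9546224 on the plus strand for SNHG18.
ZFAS1: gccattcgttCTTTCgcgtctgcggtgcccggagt
SNHG5: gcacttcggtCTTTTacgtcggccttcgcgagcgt
SNHG19: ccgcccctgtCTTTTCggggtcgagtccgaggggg
SNHG4: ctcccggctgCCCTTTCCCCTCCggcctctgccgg
SNHG12: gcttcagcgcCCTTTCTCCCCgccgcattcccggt
SNHG18: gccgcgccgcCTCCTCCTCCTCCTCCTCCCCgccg
A missing tract says only that these letters do not begin at the annotated start. The RefSeq start of GAS5, for example, lies upstream of the GENCODE 29 gene, and at SNHG1 the run after the C ended after 2 pyrimidines.

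By GENCODE 29 (GRCh38) the members lie on 14 chromosomes, with 4 each on chromosomes 1 and 17. They span from 507 bases at SNHG25 to 440880 bases at SNHG14, with a median of 6643. Their largest transcripts have from 2 to 39 exons. The annotation places 140 snoRNA and scaRNA genes inside 27 of them (all but GAS5 and SNHG27), 84 of these in SNHG14 alone, which carries the SNORD115 and SNORD116 arrays of the Prader-Willi region. GAS5 is a known host of box C/D snoRNAs, so its lack of any is a property of this annotation release. At 6 members (SNHG14, SNHG20, SNHG21, SNHG28, SNHG3 and SNHG4) a different gene is annotated over the same stretch and strand, and the division of reads between such pairs is uncertain.

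Each library held between 53531257 and 70518401 estimated counts. The targeted gene, PRMT5, held 9604, 8812 and 7966 counts in NC-shRNA against 2502, 3188 and 2203 in PRMT5-shRNA, or 32.6% of the control level (95% interval 27.9 to 38.0). Of the epithelial markers KRT8, KRT18, KRT19 and KRT7 were high and EPCAM and CDH1 were below 1 FPKM (fragments per kilobase of transcript, scaled to library size), with a summed level of 344 to 361 FPKM in NC-shRNA and 318 to 329 FPKM in PRMT5-shRNA. Summed markers of blood cells stayed between 1.2 and 1.85 FPKM, those of endothelium between 14.2 and 15.8 FPKM, mostly ESAM, and those of fibroblasts between 10.2 and 12.4 FPKM. Of 5 tested endothelial markers 4 (VWF, KDR, PECAM1 and CDH5) were higher and ESAM lower at an unadjusted p of 0.05, VWF with an adjusted p of 0.0341 by edgeR. Of 5 tested fibroblast markers COL3A1 and PDGFRB were higher, of 6 epithelial markers KRT8 was lower, and of 3 blood markers 0 passed in edgeR at an unadjusted p of 0.05. Beside these counts, 6.54% of all tested genes were higher and 6.29% lower at that p. VWF and KDR were at 0 in NC-shRNA and at most 0.2 FPKM in PRMT5-shRNA, and CD3E and COL1A2 were at 0 in every library. HBB, TIE1, PTPRC, LYZ and PECAM1 were at 0 in at least 1 library. Some other members of these lists were detected in every library. CDH5 was at 1.31 to 2.02 FPKM, DCN at 5.05 to 7.32, LUM at 1.6 to 2.6, COL3A1 at 0.89 to 1.99 and CD14 at 0.65 to 1.5. The part of these markers in the values below was not tested. In bulk RNA, fewer cells that express a gene and less RNA per cell cannot be told apart.

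With PRMT5 knocked down, most host genes stayed close to their control levels. In edgeR's quasi-likelihood fit, adjusted by Benjamini-Hochberg over 20295 genes, 0 of the 26 tested members passed an adjusted p of 0.05, where 0.0690% of all genes passed. At an unadjusted p of 0.05, 1 member was higher (SNHG14) and 2 were lower (SNHG25 and SNHG29), against 6.54% of all genes higher and 6.29% lower. The same genes were those whose libraries did not overlap between the groups, 1 higher and 2 lower, against 11.0% and 10.7% of all genes. These shares of the members are near those of all genes. The median log2 fold change of the 26 was −0.07, with 9 positive and 17 negative, beside 0.01 for all tested genes. It was 0.0070 without NC-shRNA replicate 1 and 0.000072 without NC-shRNA replicate 3. Their median absolute change was 0.13 on the log2 scale, beside 0.19 for all tested genes. DESeq2 passed 1 member at an adjusted p of 0.05, SNHG29, where it passed 530 of 20295 genes (2.61%). A linear model per gene on FPKM also passed SNHG29, where it passed 2 of 14707 genes (0.0136%).

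How small a change the data leave room for was read from the 95% intervals. In 10 members (GAS5, ZFAS1, SNHG3, SNHG4, SNHG5, SNHG6, SNHG7, SNHG8, SNHG12 and SNHG14) the whole interval lay within 1.25-fold of the control in either direction, and in 20 within 2-fold. In the other 6 (DANCR, SNHG9, SNHG20, SNHG22, SNHG25 and SNHG26) the interval reached past 2-fold, so a 2-fold change was not excluded there. The plot of fold changes shows both kinds.

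**Figure D1:**
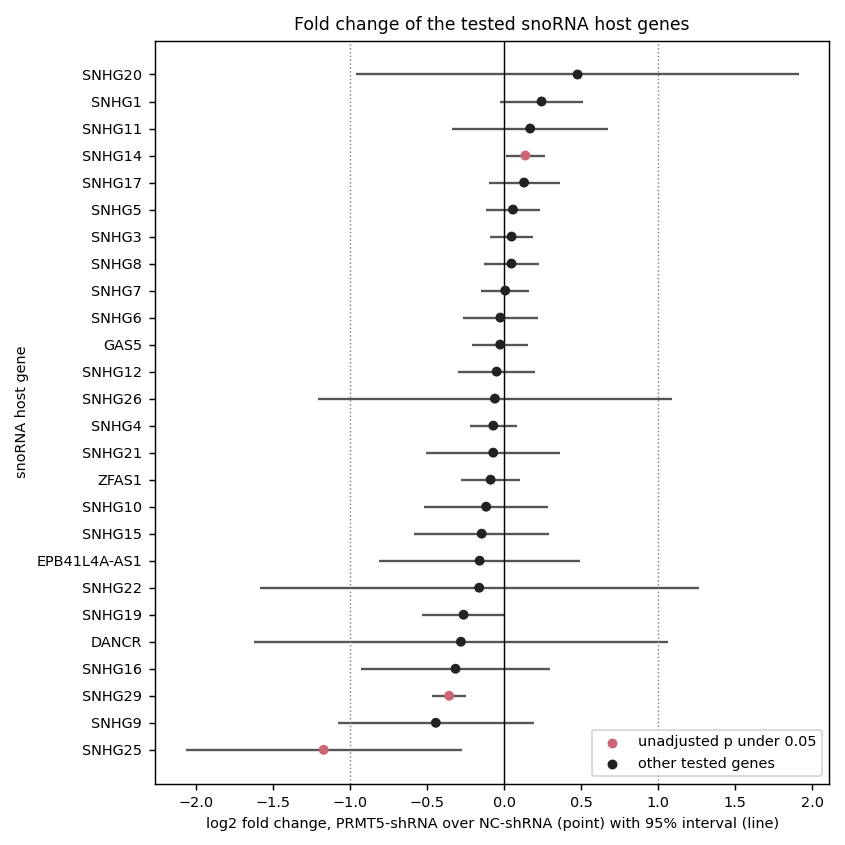
Log2 fold change, PRMT5-shRNA over NC-shRNA, of the 26 tested host genes (points) with 95% intervals from the edgeR fit (lines); dotted lines mark a 2-fold change and coloured points an unadjusted p under 0.05. Most points lie within 0.2 of 0 (18 of 26), and the widest intervals belong to SNHG20, SNHG22, DANCR and SNHG26.

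Per length, the host genes covered a wide range of levels. Mean FPKM was at least 10 in 13 members, from 1 to 10 in 11 and under 1 in 5. SNHG29 was the highest and held 18.1% of the members' summed FPKM, and the 6 highest (SNHG29, SNHG19, GAS5, ZFAS1, SNHG6 and SNHG8) held 63.9%. In the order of FPKM, SNHG29 and SNHG19 stood clear of each other and of the rest, while GAS5, ZFAS1 and SNHG6 overlapped library by library, as did SNHG4, SNHG5 and SNHG1. The summed FPKM of the 29 members was 424, 383 and 422 in NC-shRNA and 391, 399 and 386 in PRMT5-shRNA. The library sums overlapped between the groups (p = 0.4 by an exact permutation test, two-sided, where 0.1 is the smallest p that 3 against 3 libraries allow).

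**Figure D2:**
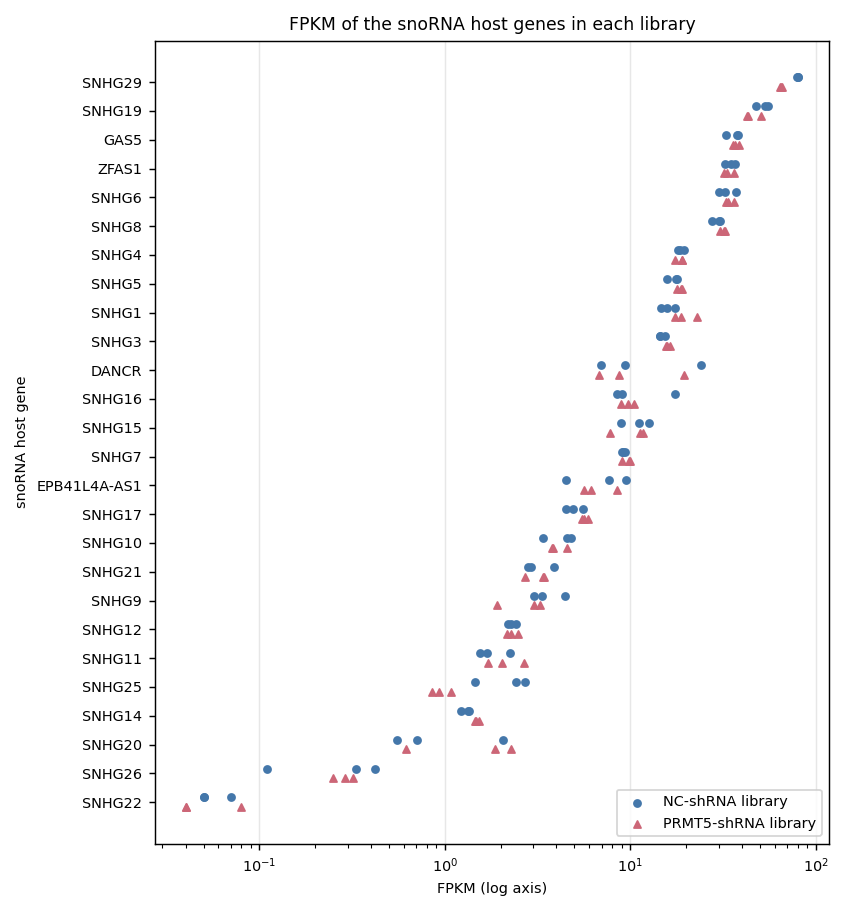
FPKM of the 26 tested host genes in each library on a log axis, ordered by mean; circles are the 3 NC-shRNA libraries and triangles the 3 PRMT5-shRNA libraries. The groups overlap in most rows and lie clearly apart at SNHG29, from 79.4 to 80.5 FPKM in NC-shRNA and from 64.5 to 65.6 FPKM in PRMT5-shRNA.

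The most abundant host gene was also the one with the smallest p. SNHG29 (ENSG00000175061, chr17:16438822-16478678 on the plus strand, named LRRC75A-AS1 in GENCODE 29) hosts SNORD49A, SNORD49B and SNORD65. Its libraries held 365, 361 and 351 CPM (counts scaled to library size with TMM factors) in NC-shRNA and 278, 285 and 277 CPM in PRMT5-shRNA. All 3 PRMT5-shRNA libraries lay below all 3 controls, and within each group the libraries were close together. The level was 78.0% of control (95% interval 72.2 to 84.3), a log2 fold change of −0.36 with a standard error of 0.05. The unadjusted p was 0.000139 and the adjusted p 0.0909 by edgeR's quasi-likelihood test. The unadjusted p was under 0.05 in 19 of 19 alternative settings, with a log2 fold change between −0.38 and −0.29, and the adjusted p reached up to 0.366. By DESeq2 the adjusted p was 9.59e-06.

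The snoRNAs that SNHG29 carries are shown because they are what its introns deliver. All 3 are of the box C/D class, and the capitals mark the first C box searched as TGATGA near the 5′ end and the last D box searched as CTGA near the 3′ end. They lie at chr17:16440036-16440106 (SNORD49A), chr17:16439505-16439576 (SNORD49B) and chr17:16441226-16441298 (SNORD65), all on the plus strand.
SNORD49A: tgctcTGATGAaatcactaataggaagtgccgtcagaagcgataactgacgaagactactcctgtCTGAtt
SNORD49B: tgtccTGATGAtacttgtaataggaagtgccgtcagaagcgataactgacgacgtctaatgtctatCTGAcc
SNORD65: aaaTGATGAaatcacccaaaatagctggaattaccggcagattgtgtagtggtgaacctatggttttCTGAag
The rows of these snoRNAs held 1 or 2 counts in every library, apart from 45 counts for SNORD65 in PRMT5-shRNA replicate 1, and could not be tested. On the opposite strand the protein-coding LRRC75A overlaps SNHG29. LRRC75A had 23, 23 and 38 counts in NC-shRNA and 74, 53 and 44 in PRMT5-shRNA, at most 0.32 FPKM. Its log2 fold change was 1.16 (unadjusted p 0.0268, adjusted p 0.326 by edgeR), opposite in sign to that of SNHG29. AC093484, a non-coding RNA also on the opposite strand, had a log2 fold change of −0.21 (unadjusted p 0.502 by edgeR). The differences between these genes were not tested. The library kit keeps strand, but whether the counting used it is not given in the sources used here.

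SNHG25 (ENSG00000266402, chr17:64145970-64146476 on the plus strand), a short host of SNORD104 and SNORA50C, was the member with the largest fold change, at a low level. It had 56, 34 and 55 counts in NC-shRNA and 20, 22 and 17 in PRMT5-shRNA, and the groups did not overlap. The level was 44.3% of control (95% interval 23.8 to 82.6), a log2 fold change of −1.17 with a standard error of 0.38. The unadjusted p was 0.0176 and the adjusted p 0.301 by edgeR's quasi-likelihood test. Without NC-shRNA replicate 1 the unadjusted p was 0.0578, and without NC-shRNA replicate 3 it was 0.0653. The host spans 507 bases and carries snoRNAs of both classes, which is why both sequences are shown. SNORD104 lies at chr17:64146083-64146152 and SNORA50C at chr17:64146339-64146471, with the C and D boxes and, for the H/ACA snoRNA, the ACA near the 3′ end in capitals.
SNORD104: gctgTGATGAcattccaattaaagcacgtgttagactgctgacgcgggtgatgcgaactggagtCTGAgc
SNORA50C: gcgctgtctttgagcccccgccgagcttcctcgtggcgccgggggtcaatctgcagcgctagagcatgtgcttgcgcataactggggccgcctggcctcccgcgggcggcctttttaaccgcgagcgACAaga
The row of SNORD104 held 114, 83 and 101 counts in NC-shRNA and 46, 97 and 44 in PRMT5-shRNA, with a log2 fold change of −0.59 (unadjusted p 0.0983, adjusted p 0.466 by edgeR). The row of SNORA50C held 27, 34 and 16 counts in NC-shRNA and 17, 14 and 6 in PRMT5-shRNA, with a log2 fold change of −0.90 (unadjusted p 0.159). Both snoRNA rows overlapped between the groups, through PRMT5-shRNA replicate 2 for SNORD104.

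SNHG14 (ENSG00000224078, chr15:24978583-25419462 on the plus strand), the long transcript of the imprinted Prader-Willi and Angelman region, was the only member higher at an unadjusted p of 0.05. It had 122, 129 and 128 CPM in NC-shRNA and 138, 137 and 142 CPM in PRMT5-shRNA, a small step with no overlap. The log2 fold change was 0.14 with a standard error of 0.05, an unadjusted p of 0.0382 and an adjusted p of 0.361 by edgeR's quasi-likelihood test. Leaving out any 1 library ended the unadjusted call, with p from 0.0587 to 0.0987, and it was under 0.05 in 6 of 19 alternatives. A correction for gene length turned the log2 fold change to −0.15. SNRPN, which overlaps it on the same strand, had a log2 fold change of 0.07 (unadjusted p 0.557). PWAR5, a second transcript annotated inside SNHG14 on the same strand, had 2, 3 and 8 counts in NC-shRNA and 68, 36 and 72 in PRMT5-shRNA. Its log2 fold change was 3.88, with an unadjusted p of 0.000725 and an adjusted p of 0.158 by edgeR. PWAR5 is no host gene of the list and was picked out after its values were seen.

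The classic decay-sensitive host GAS5 (growth arrest specific 5, ENSG00000234741, chr1:173863900-173868882 on the minus strand) did not pass the test. It had 223, 188 and 216 CPM in NC-shRNA and 198, 204 and 214 CPM in PRMT5-shRNA, with every PRMT5-shRNA library inside the control range. Its level was 98.2% of control (95% interval 86.6 to 111), with a log2 fold change of −0.03 (unadjusted p 0.741, adjusted p 0.918 by edgeR), and the sign of so small a value turned positive under scaling by library total. ZFAS1, the host of the SNORD12 group at the start of ZNFX1, had 36.5, 34.8 and 32.4 FPKM in NC-shRNA and 32.2, 33.4 and 36.3 FPKM in PRMT5-shRNA. The groups overlapped and the level was 94.0% of control (95% interval 82.3 to 107). ZNFX1 on the opposite strand had a log2 fold change of −0.03 (unadjusted p 0.654).

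Among the other abundant hosts no difference passed an unadjusted p of 0.05 in edgeR, and SNHG19 came closest. SNHG19, host of SNORD60, had 53.4, 47.9 and 55.6 FPKM in NC-shRNA and 50.9, 42.9 and 42.3 FPKM in PRMT5-shRNA. Its level was 83.3% of control (95% interval 69.2 to 100.2), with an unadjusted p of 0.0523 and an adjusted p of 0.394 by edgeR, and 1 PRMT5-shRNA library lay inside the control range. The unadjusted p of SNHG19 was under 0.05 in 5 of 19 alternatives, at 0.0421 with DESeq2 and as low as 0.0216 without PRMT5-shRNA replicate 1, and its adjusted p was at least 0.308. SNHG6, host of SNORD87, had 37.2, 30.2 and 32.4 FPKM in NC-shRNA and 33.5, 36.1 and 32.8 FPKM in PRMT5-shRNA, an overlapping pair of groups at 98.3% of control. SNHG8, host of SNORA24, had 30.1, 27.5 and 30.3 FPKM in NC-shRNA and 32.2, 32.1 and 30.4 FPKM in PRMT5-shRNA. Its level was 103% of control (95% interval 91.3 to 117). SNHG4, host of SNORA74A, had 18.5, 18.1 and 19.5 FPKM in NC-shRNA and 19.1, 19.1 and 17.5 FPKM in PRMT5-shRNA. SNHG5, host of SNORD50B, had 17.9, 15.8 and 17.6 FPKM in NC-shRNA and 18.7, 18.0 and 19.1 FPKM in PRMT5-shRNA. Their levels were 95.2% (95% interval 85.7 to 106) and 104% (92.1 to 118) of control. In FPKM, which carries no TMM factor, all PRMT5-shRNA libraries of SNHG3, SNHG5 and SNHG8 lay above all controls, by narrow margins, while in TMM-scaled CPM the groups overlapped. On the FPKM scale 4 members were thus apart and higher and 2 apart and lower, where 14.7% and 6.59% of all tested genes were.

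SNHG1, which carries SNORD22 and a row of SNORD25 to SNORD30, had the largest positive change among the well-expressed members. It had 72.8, 65.7 and 76.3 CPM in NC-shRNA and 74.6, 81.2 and 98.3 CPM in PRMT5-shRNA, highest in PRMT5-shRNA replicate 3. The log2 fold change was 0.24 with a standard error of 0.11, an unadjusted p of 0.0727 and an adjusted p of 0.429 by edgeR's quasi-likelihood test. Without PRMT5-shRNA replicate 3 it was 0.12, and without PRMT5-shRNA replicate 1 it was 0.33 with an unadjusted p of 0.0281. The unadjusted p of SNHG1 was under 0.05 in 6 of 19 alternatives, and its adjusted p in 0. SNHG3, host of the SNORA73 pair, had 72.4, 70.3 and 73.4 CPM in NC-shRNA and 73.7, 77.2 and 72.4 CPM in PRMT5-shRNA, or 103% of control (95% interval 93.9 to 114). RCC1, the nucleotide exchange factor of the GTPase Ran, overlaps SNHG3 on the same strand and had 13825, 13354 and 10127 counts in NC-shRNA and 5758, 10742 and 7614 in PRMT5-shRNA. Its log2 fold change was −0.52 (unadjusted p 0.0102, adjusted p 0.267 by edgeR), so the values of SNHG3 and of its overlapping partner stood apart at this locus, a difference that was not itself tested. At the other same-strand pairs, MATR3 beside SNHG4 had a log2 fold change of −0.07 (unadjusted p 0.725) and SEC14L1 beside SNHG20 of 0.14 (unadjusted p 0.493). AC105339 beside SNHG21 had 266, 305 and 257 counts in NC-shRNA and 142, 203 and 140 in PRMT5-shRNA, a log2 fold change of −0.65 (unadjusted p 0.00324, adjusted p 0.203 by edgeR), while SNHG21 had −0.07 (unadjusted p 0.709).

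Several members varied widely between replicates. In 10 of the 26, SNHG25 among them, the highest library of a group was over 1.5 times the lowest. DANCR, a long non-coding RNA known for holding back differentiation and the host of SNORA26, had 67.2, 25.6 and 18.5 CPM in NC-shRNA and 22.7, 51.1 and 17.8 CPM in PRMT5-shRNA. One library of each group was high, NC-shRNA replicate 1 and PRMT5-shRNA replicate 2, and the log2 fold change of −0.28 had a standard error of 0.57 (unadjusted p 0.635). Leaving out 1 library moved it from −0.88 to 0.47. SNHG16, host of SNORD1A to SNORD1C, had 55.7, 57.6 and 110 CPM in NC-shRNA and 64.1, 55.2 and 59.6 CPM in PRMT5-shRNA, so its fold change rested on NC-shRNA replicate 3. Its log2 fold change was −0.32 with all libraries and 0.07 without that library.

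SNHG20, host of SCARNA16, split the libraries in another way. It had 4.19, 5.18 and 14.6 CPM in NC-shRNA and 4.34, 16.0 and 13.0 CPM in PRMT5-shRNA, low in 3 libraries and high in the other 3. The log2 fold change of 0.48 had a standard error of 0.61 (unadjusted p 0.458). Leaving out 1 library moved it from 0.12 without PRMT5-shRNA replicate 2 to 1.25 without NC-shRNA replicate 3 (unadjusted p 0.0626), with 0.17 and 0.24 without NC-shRNA replicates 1 and 2 and 0.86 without PRMT5-shRNA replicate 1. EPB41L4A-AS1, host of SNORA13, had 31.5, 18.0 and 36.9 CPM in NC-shRNA and 23.4, 21.6 and 32.3 CPM in PRMT5-shRNA. Its groups overlapped, at 89.5% of control (95% interval 56.8 to 141). The high libraries of these genes were shared only in part, as the plot by library shows: NC-shRNA replicate 3 was high for SNHG16 and SNHG20 and PRMT5-shRNA replicate 2 for DANCR and SNHG20.

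**Figure D3:**
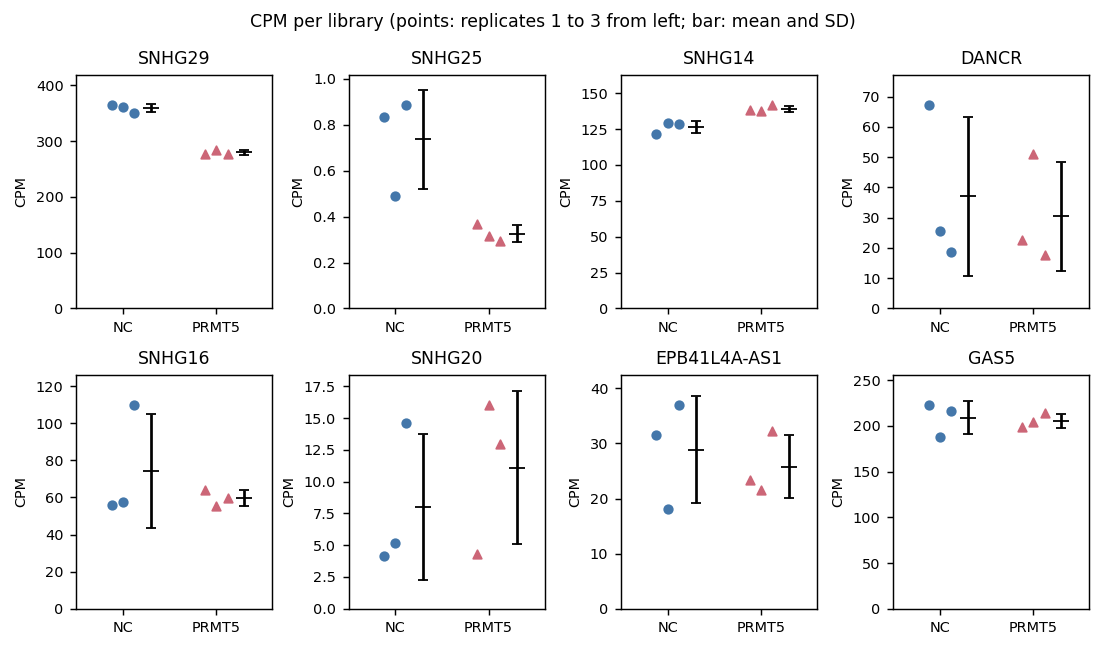
CPM (TMM-scaled, axes from 0) of 8 host genes in each library, with the mean and SD of the 3 libraries of a group beside the points. SNHG29, SNHG25 and SNHG14 separate the groups, GAS5 overlaps within a narrow range, and DANCR, SNHG16, SNHG20 and EPB41L4A-AS1 differ more within a group than between groups.

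The remaining members were of middle or low level and none passed the test. SNHG7, host of SNORA17A and SNORA17B, was the most even, with 45.2 to 49.5 CPM over the 6 libraries and 100.5% of control (95% interval 90.1 to 112). SNHG15, SNHG17, SNHG10, SNHG21, SNHG12 and SNHG11 had log2 fold changes between −0.15 and 0.17, each with overlapping groups. SNHG9, a short host of SNORA78, had 2.26, 1.99 and 2.85 CPM in NC-shRNA and 2.07, 1.94 and 1.20 CPM in PRMT5-shRNA, with a log2 fold change of −0.44 (unadjusted p 0.142). SNHG26 and SNHG22 were below 1 FPKM, and their intervals ran from 43.1% to 213% and from 33.2% to 240% of control. SNHG27 and SNHG28 were at 0 counts in every library, and SNHG18 was at 0 in NC-shRNA and had 8, 4 and 0 counts in PRMT5-shRNA, too few to test.

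Of the 6 members with a pyrimidine tract at the start, shown above, 5 could be tested. Their log2 fold changes ran from −0.26 at SNHG19 to 0.06 at SNHG5 with a median of −0.07, 4 negative and 1 positive. The 17 tested members with a window but no tract ran from −0.36 to 0.48 with a median of −0.03, 9 negative and 8 positive. Because a missing tract speaks only of the annotated start, this split cannot show whether hosts with and without one behave alike. Hosts of box C/D snoRNAs alone (9 tested) had a median of −0.06 and hosts of box H/ACA snoRNAs alone (10 tested) a median of −0.03, with GAS5 in neither. These are descriptions of few genes and no test was run between them.

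Few of the snoRNAs inside the hosts gave values that could be tested. The libraries were made by poly(A) selection, and mature snoRNAs carry no poly(A) tail. Of the 140 annotated inside members, 56 were at 0 in every library, 55 of them in SNHG14. With these included, 75 never rose above 1 count, and 22 could be tested. Some untested rows had uneven counts. SNORD22 in SNHG1 had 211, 216 and 6 in NC-shRNA and 1, 2 and 2 in PRMT5-shRNA. RF00560 in SNHG7 had 3, 3 and 2 in NC-shRNA and 2, 86 and 48 in PRMT5-shRNA. Of the 22, 0 passed an unadjusted p of 0.05 in edgeR, 7 were positive and 15 negative, and the median log2 fold change was −0.28. Over all 71 tested snoRNA and scaRNA rows the median was −0.19, with 0 higher and 3 lower (SCARNA12, SNORD6 and SNORD19C) at an unadjusted p of 0.05. Of all tested genes 6.54% were higher and 6.29% lower at that p. The rows of 47 of the 140 overlap an annotated exon of the host, so part of their counts can be host RNA.

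Of the 8 proteins that make up the 2 snoRNA-protein particles, all had negative log2 fold changes and 4 were lower at an unadjusted p of 0.05, where 6.29% of all genes were. In the box C/D core, NOP58 (log2 fold change −0.20, unadjusted p 0.00739) and the methyltransferase FBL (−0.20, unadjusted p 0.0390) were lower, and SNU13 had −0.32 (unadjusted p 0.0610) and NOP56 −0.15 (unadjusted p 0.0746). In the H/ACA core, NOP10 (−0.35, unadjusted p 0.0153) and NHP2 (−0.21, unadjusted p 0.0285) were lower, and the pseudouridine synthase DKC1 had −0.14 and GAR1 −0.06. All 4 H/ACA proteins had PRMT5-shRNA libraries below every control library, as had 10.7% of all genes. The smallest adjusted p among the 8 was 0.244 by edgeR. Of 13 assembly and Cajal body factors and of 6 enzymes that trim snoRNA ends, 0 passed an unadjusted p of 0.05 in edgeR, with medians of −0.10 and −0.06.

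The factors that degrade host gene exons had medians near 0, and the counts that follow stand beside 6.54% of all genes higher and 6.29% lower at an unadjusted p of 0.05. Of 21 NMD factors, CASC3 (log2 fold change 0.20) was higher and EIF4A3 (−0.27) lower at an unadjusted p of 0.05, both parts of the exon junction complex, and the median was −0.06. Of 30 factors of general RNA decay, the exosome subunit EXOSC8 (0.23) and ZCCHC8 (0.21) were higher. The exosome subunits EXOSC4 (−0.45), EXOSC5 (−0.34) and EXOSC7 (−0.22) were lower, and the median of the 30 was −0.03. Among 28 mRNAs known as NMD targets, 5 were higher and 2 lower with a median of 0.02. DDIT3, a transcription factor of the stress response, was the 1 listed gene here with an adjusted p under 0.05 (log2 fold change 1.28, adjusted p 0.0204 by edgeR). CARS (0.64) and GADD45A (0.50) were higher and SRSF3 (−0.28) was lower at an unadjusted p of 0.05, the last coding for a splicing factor. Several of these targets are also genes of the integrated stress response.

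Other hosts and other non-coding RNAs give the frame for these values. Of 41 protein-coding snoRNA hosts outside the ribosomal proteins, 0 were higher and 13 lower at an unadjusted p of 0.05, where 6.29% of all genes were lower, with a median of −0.09 and no adjusted p under 0.05 by edgeR. The lowest p among them were those of the chaperonin subunit CCT6A (log2 fold change −0.29), TBRG4 (−0.35), HNRNPA2B1 (−0.24) and SF3B3 (−0.29). Of 77 ribosomal protein genes, 0 were higher and 20 lower with a median of −0.15, led by RPS26 (−0.43), RPL32 (−0.66), RPL23 (−0.24) and RPL28 (−0.25). Of 28 other long non-coding RNAs, LINC00662 (0.37) was higher and 0 were lower, with a median of 0.08, and the 2 tested non-coding hosts outside the SNHG names, RMST and PRKAR2A-AS1, did not pass. The median of the non-coding hosts, −0.07, lay between that of other long non-coding RNAs and that of the ribosomal proteins, and the differences between these lists were not tested.

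**Figure D4:**
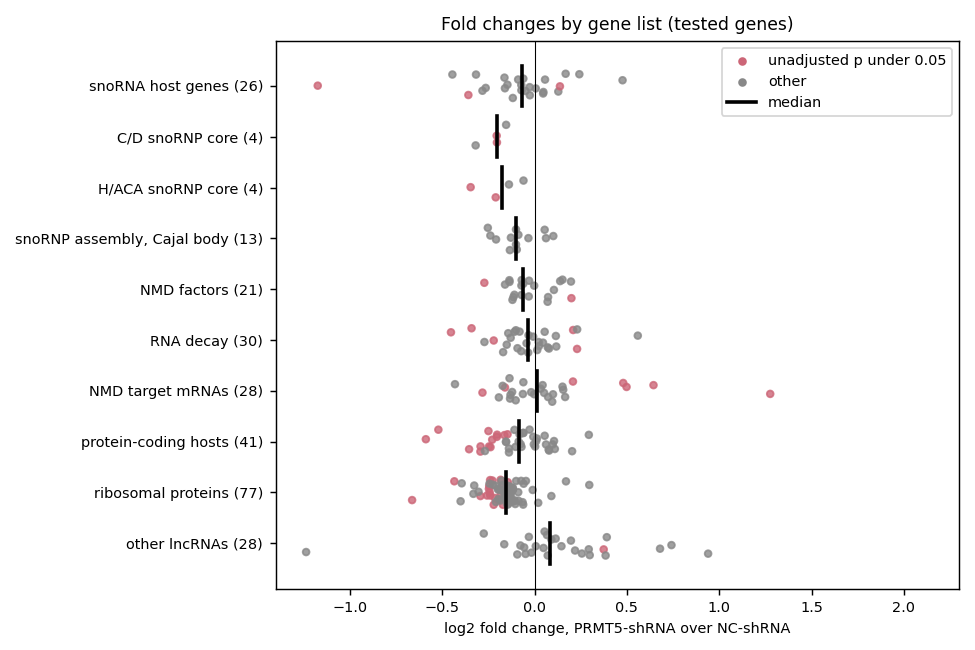
Log2 fold change, PRMT5-shRNA over NC-shRNA, of every tested gene (points) in 10 lists, with the number tested in brackets, the median as a black bar and coloured points for an unadjusted p under 0.05. The ribosomal proteins centre on −0.15 and the host genes on −0.07, and the host genes are spread on both sides of 0.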

How the data were processed

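RNA from NCI-H460 cells with NC-shRNA (3 libraries) or PRMT5-shRNA (3 libraries) was sequenced from poly(A) libraries made with a stranded kit. The authors trimmed reads with cutadapt 1.9, aligned them with HISAT2 2.0.4 to GRCh38 (per the submitters' processing notes) and ran StringTie 1.3.4d. They deposited estimated counts per gene, which were whole numbers and not normalized, and FPKM values, normalized for length and library size. Low counts gather at 4 (1214 to 1319 genes per library, against 462 to 546 at 3), so a count need not be 1 read. Counts were filtered (filterByExpr by group), scaled by TMM and tested with edgeR 4.0.16 (R 4.3.3), a quasi-likelihood fit of the 6 libraries without covariates, adjusted by Benjamini-Hochberg over 20295 genes. 95% intervals use the fitted standard error. Alternatives used limma 3.58.1, DESeq2 1.42.0, other filters and scalings, and each library left out. The script was tested on simulated data. Groups came from the sample labels. Depth was 53531257 to 70518401 counts per library, and replicate pairs differed by more than sampling noise.

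The members and lists were chosen with earlier results of these data known. Values per library are given for PRMT5, the 4 members without an SNHG name, every member at an unadjusted p under 0.05 or without overlap, and the 8 members highest in FPKM. Lists outside the members are described by counts, medians and up to 4 genes with the smallest p. Further genes were named after their values were seen. Sequences are from RefSeq (GRCh38.p14) and, for snoRNAs, from the GENCODE 29 transcript sequences.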

Additional observations from a re-analysis of the deposited data

How the results depend on the processing

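The 26 tested host genes were refitted under 19 alternatives, which gave 481 single-gene values. Of these 440 kept their direction and their side of the adjusted threshold, 2 newly passed it and 39 changed sign. The number of host genes at an adjusted p of 0.05 was 0, and it was 1 (SNHG29) with DESeq2, which passed 2.61% of all genes, and 1 (SNHG29) with the linear model per gene, which passed 0.0136%. The number higher at an unadjusted p of 0.05 was 1 (SNHG14). It was 2 with scaling by library total (SNHG1 and SNHG14) and 2 with the linear model per gene (SNHG14 and SNHG3). It was 0 with DESeq2, 0 with limma without a filter and 0 with the length correction. In both limma fits with a filter the 1 higher member was SNHG1 and not SNHG14. The number lower was 2. It was 1 with at least 100 counts required and 1 with counts divided by 4, and SNHG25 was not tested in either setting. It was 3, with SNHG19 added, with DESeq2 size factors, without a filter and with DESeq2. Leaving out 1 library gave 0 to 1 higher, 1 to 3 lower and a median log2 fold change from −0.094 to 0.0070, the last without NC-shRNA replicate 1; the lone count of 1 without PRMT5-shRNA replicate 1 was SNHG1. Scaling by library total moves the median of all genes to 0.057.

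Apart from SNHG14, sign changes fell on values near 0 or on genes with uneven libraries, and the cause was not tested. The libraries of SNHG14 were close together within each group, and its sign changed only with the length correction. With scaling by library total the log2 fold changes were 0.023 for GAS5, 0.00017 for SNHG12 and 0.026 for SNHG6. With limma on log2(FPKM + 1), with or without a filter, and with the linear model they were 0.036 for GAS5, 0.0037 for SNHG12 and 0.039 for SNHG6, and with a pseudocount of 0.1 they were 0.037, 0.0048 and 0.040. SNHG26 had 0.0073 with limma without a filter. The length correction gave −0.146 for SNHG14 and 0.0050 for SNHG6. Leaving out 1 library gave ranges of −0.879 to 0.467 for DANCR, −0.097 to 0.021 for GAS5, −0.456 to 0.293 for SNHG26, −0.093 to 0.080 for SNHG6, −0.021 to 0.044 for SNHG7, −0.408 to 0.056 for EPB41L4A-AS1, −0.487 to 0.073 for SNHG16, −0.145 to 0.071 for SNHG21, −0.0186 to 0.336 for SNHG11, −0.647 to 0.072 for SNHG22 and −0.260 to 0.021 for SNHG15.

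Deviations from the group means were not shared between libraries of equal number (correlations 0.035, −0.010 and −0.015), so the numbers do not pair them. With the replicate block 1 host gene was higher (SNHG1, p 0.0463) and 2 lower at an unadjusted p of 0.05 in edgeR, the call of SNHG14 was lost (p 0.0609), 0 passed the adjusted p and the median was −0.059; SNHG26 turned to 0.105, and with the length correction added SNHG26 had 0.111, SNHG14 −0.145 and SNHG6 0.0091. With 3 libraries per group, depth and spread limit SNHG22, SNHG25, SNHG26 and SNHG9, which had few counts.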
